A study of Mus musculus with 18 samples.

Results

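The 10 genes described here are transcription factors that mark position along the gut, namely Hoxa10, Hoxa11, Hoxa13, Hoxb13, Hoxd10, Hoxd11, Hoxd12, Hoxd13, Cdx1 and Cdx2. They were taken by symbol from a count table of 45777 genes, in which all 10 were found. The rule used no measured value, but the genes were chosen with earlier results of these data known. Of the 10, 7 had enough reads to enter the model fitted to 18848 genes. Hoxb13, Hoxd12 and Hoxd13 did not. The question was whether the stretch of colon that was sampled differed between the groups.

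Hox genes encode homeodomain proteins and lie in clusters named HoxA to HoxD. Within a cluster the order of the genes follows the body axis, so that genes of low number act towards the head and those of high number, the posterior Hox genes, act towards the tail. Hoxa13 and Hoxd13 pattern the hindgut and the anorectal region in the mouse embryo, and Hoxb13 is expressed in the distal colon, rectum and prostate of the adult. Cdx1 and Cdx2 are caudal-type homeodomain proteins that regulate Hox genes in the embryo and maintain intestinal identity in the adult epithelium.

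Messenger RNA was sequenced from colon tissue of male C57BL/6J mice, all germ-free and 8 weeks old. Libraries labelled DKO (genotype Lao1-/- Il4i1-/-), LAO1KO (genotype Lao1-/-) and WT (wild-type) each came from mice that drank either 2.5% dextran sulfate sodium (DSS) for 24 hours or sterile water without it. DSS is a sulfated polysaccharide that injures the colonic epithelium, and the deleted genes code for enzymes that oxidise L-amino acids. Each of the 6 groups held 3 libraries labelled as biological replicates A, B and C, 18 libraries in all. The labels do not say which stretch of colon was taken, and replicate letters did not pair libraries across groups.

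Libraries held 26003174 to 36553193 counts. The check on the targeted genes was weak, because Lao1 had 0 to 10 counts per library in libraries labelled DKO, 0 to 10 in those labelled LAO1KO and 0 to 4 in those labelled WT, so its counts were not lower where the labels say that it was deleted. Il4i1 had 0 counts in all 6 DKO libraries, 0 to 50 in LAO1KO libraries and 0 to 52 in WT libraries. Genotypes are therefore given as labelled throughout. Mitochondrially encoded mRNA took 14.3 to 44.9% of counts in DSS libraries and 6.89 to 20.7% in water libraries. A pair of water libraries, WT water B and LAO1KO water A, stood apart from the rest and are described below with and without their part in each result. The pair was picked for its high Hoxa13. Fits without it, or without WT water B alone, had to lower Hoxa13 in the water groups and are no independent check of that gene. WT water B held the highest value of 15.5% of all tested genes and LAO1KO water A that of 14.7%, against 1.73 to 9.21% for each of the other 16 libraries. An intestinal marker was present in every library, with Cdh17, an intestinal cadherin, at 292 to 908 CPM (counts per 1000000 counts). The gastric markers Gkn1, Gkn2 and Tff1 reached at most 0.0956, 0.0768 and 0.106 CPM, and Barx1 had no count. Sox2 and Muc5ac belong to the same list of small intestine and stomach genes. Muc5ac had at most 3 reads in a library, whereas Sox2 was detected in every library, at 0.377 to 2.35 CPM.

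Posterior HoxA members lie on chromosome 6, with Hoxa13 (ENSMUSG00000038203.18) at chr6:52257694-52260880 on the minus strand of GRCm38, Hoxa11 at chr6:52242106-52245810 and Hoxa10 at chr6:52231197-52240854. The HoxD members lie on chromosome 2, with Hoxd10 (ENSMUSG00000050368.4) at chr2:74691924-74695105 on the plus strand, Hoxd11 at chr2:74679557-74687016, Hoxd12 at chr2:74675013-74677705 and Hoxd13 at chr2:74668310-74671599. Hoxb13 lies on chromosome 11 and Cdx2 on chromosome 5. Gene models in the annotation were searched for shared exons. Hoxa11 shared 800 exon bases, 35.0% of its exons, with its antisense neighbour Hoxa11os. Hoxd10 and Hoxd11 shared 5.73% and 10.8% of their exon bases with the transcript Gm28309 on the same strand. How strand and overlapping genes were counted is not given in the sources used here, so the values of these 3 genes are uncertain to that extent.

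The sequences upstream of 3 genes are shown because Hoxa13 and the noncoding Hottip, which starts from the same end of the HoxA cluster and runs the other way, were high in the same library in which Hoxd10 was lowest. Each is the 250 bases before the gene's start in the RefSeq annotation of GRCm38.p6, on the gene's own strand, and RefSeq entries were found for 8 of the 10 genes. Hoxa13 is chr6:52260881-52261130 (minus strand), Hottip is chr6:52262525-52262774 (plus strand) and Hoxd10 is chr2:74691641-74691890 (plus strand). Capitals mark a match to the motif searched.
Hoxa13: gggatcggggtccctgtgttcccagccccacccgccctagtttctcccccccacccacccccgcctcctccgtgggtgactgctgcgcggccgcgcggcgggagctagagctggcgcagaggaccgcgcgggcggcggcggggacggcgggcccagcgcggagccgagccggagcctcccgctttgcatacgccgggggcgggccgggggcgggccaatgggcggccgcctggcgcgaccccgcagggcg
Hottip: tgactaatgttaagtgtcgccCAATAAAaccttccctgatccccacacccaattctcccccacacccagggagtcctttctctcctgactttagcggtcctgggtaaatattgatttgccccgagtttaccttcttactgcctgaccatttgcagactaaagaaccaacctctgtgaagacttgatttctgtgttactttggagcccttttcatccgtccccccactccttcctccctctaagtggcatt
Hoxd10: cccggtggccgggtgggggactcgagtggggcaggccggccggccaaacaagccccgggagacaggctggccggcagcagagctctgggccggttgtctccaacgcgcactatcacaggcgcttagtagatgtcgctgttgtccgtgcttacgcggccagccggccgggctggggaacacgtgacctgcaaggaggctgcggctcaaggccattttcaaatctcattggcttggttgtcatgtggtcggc
The Hoxa13 stretch was 80.0% G and C, the Hottip stretch 48.4% and the Hoxd10 stretch 65.6%. Motifs searched on both strands were TTTATNG, the core bound by CDX and posterior Hox proteins, and TTTACGA, a core bound by Hox13 proteins, which do not overlap as written. TTTATNG was found in 9.81% of 32851 upstream stretches of this length and TTTACGA in 0.478%. Among the members and Hottip the only match was CAATAAA, the TTTATNG motif read on the other strand, 229 bases before the start of Hottip.

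Per kilobase of exon, the Cdx genes were far above the posterior Hox genes. Mean levels over the 18 libraries were 131.5 CPM per kilobase for Cdx1 and 123.6 for Cdx2. Hoxd10 followed with 6.64 CPM per kilobase, Hoxa10 with 4.76, Hoxa11 with 3.17 and Hoxd11 with 1.07. The paralog group 13 genes and Hoxd12 were the lowest, with means of 0.612 CPM per kilobase for Hoxa13, 0.158 for Hoxb13, 0.00946 for Hoxd12 and 0.00729 for Hoxd13. All further levels are in CPM scaled by library size factors, and are compared only between libraries for 1 gene at a time.

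Hoxa13 was close to its detection limit in most libraries and high in a single library, WT water B. It measured 0.320, 0.453 and 0.237 CPM in DKO DSS libraries A, B and C, against 0.274, 0.141 and 0.255 CPM in DKO water. It measured 0.364, 0.147 and 0.450 CPM in LAO1KO DSS, against 2.61, 0.238 and 0.222 CPM in LAO1KO water. It measured 0.192, 0.479 and 0 CPM in WT DSS, against 1.09, 19.2 and 0.585 CPM in WT water. The 4 highest libraries were all water libraries, WT water B with 602 reads, LAO1KO water A with 92, WT water A with 39 and WT water C with 22, and no other library had more than 15 reads. Only in WT did the DSS and water libraries not overlap.

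Hoxa10, a posterior gene of the HoxA cluster, was highest in the same pair of libraries. It measured 9.21, 12.8 and 13.2 CPM in DKO DSS, against 6.37, 9.45 and 7.83 CPM in DKO water. It measured 13.3, 13.6 and 13.6 CPM in LAO1KO DSS, against 36.4, 10.5 and 8.25 CPM in LAO1KO water. It measured 7.87, 24.9 and 11.7 CPM in WT DSS, against 16.3, 52.2 and 12.7 CPM in WT water. The third highest library was WT DSS B, and DSS and water overlapped in every genotype.

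Hoxa11, the neighbour of Hoxa10 in the cluster, varied less. It measured 5.0, 7.77 and 6.12 CPM in DKO DSS, against 5.31, 5.32 and 4.26 CPM in DKO water. It measured 6.91, 7.60 and 6.79 CPM in LAO1KO DSS, against 11.3, 5.81 and 4.09 CPM in LAO1KO water. It measured 4.99, 10.4 and 6.35 CPM in WT DSS, against 6.49, 19.8 and 6.23 CPM in WT water. WT water B, LAO1KO water A and WT DSS B were again the 3 highest, and DSS and water overlapped in every genotype. Its antisense neighbour Hoxa11os was at 85.3 CPM in WT water B and 39.2 CPM in LAO1KO water A, against 19.2 CPM in WT DSS B and at most 8.50 CPM elsewhere.

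Hoxb13, the most posterior gene of the HoxB cluster, was detected in 7 libraries. It had 156 reads in WT water B, 23 in LAO1KO water A and 10 in WT water C, and at most 3 in the others. In CPM these were 4.97, 0.653 and 0.266. In the 11 libraries with no read, a count of 0 allows up to 3 counts, which is 0.0792 to 0.123 CPM by library and covers counting error only. The highest 2 libraries were thus those of Hoxa13, and none of the 6 DKO libraries had a Hoxb13 read.

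Hoxd10 ran the other way in the pair of libraries that stood apart. It measured 10.3, 18.0 and 18.0 CPM in DKO DSS, against 10.3, 13.0 and 10.3 CPM in DKO water. It measured 14.2, 21.7 and 14.4 CPM in LAO1KO DSS, against 5.17, 12.0 and 9.86 CPM in LAO1KO water. It measured 11.7, 9.15 and 17.3 CPM in WT DSS, against 6.71, 0.383 and 14.5 CPM in WT water. WT water B, with 12 reads, and LAO1KO water A were the lowest 2 of the 18 libraries. In LAO1KO all DSS libraries were above all water libraries, and in the other genotypes they overlapped.

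Hoxd11, beside Hoxd10 in the HoxD cluster, was also low in that pair of libraries, at fewer reads in total. It measured 2.88, 7.28 and 6.98 CPM in DKO DSS, against 4.32, 6.73 and 4.41 CPM in DKO water. It measured 5.12, 5.84 and 4.70 CPM in LAO1KO DSS, against 2.30, 4.38 and 4.28 CPM in LAO1KO water. It measured 4.53, 4.35 and 4.23 CPM in WT DSS, against 3.20, 0.446 and 5.38 CPM in WT water. WT water B and LAO1KO water A were the lowest, and only in LAO1KO did DSS and water libraries not overlap.

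Hoxd12 and Hoxd13, the last genes of the HoxD cluster, were barely detected. Hoxd12 had 14 reads in all, in 4 DSS libraries, and 0 in the 9 water libraries. Hoxd13 had 11 reads in 5 libraries, of which 7 fell in DSS libraries and 4 in water libraries. Neither was detected in WT water B.

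Cdx1 and Cdx2 were even across the libraries, with the highest library 1.52 and 1.78 times the lowest. Cdx1 ranged over 202 to 222 CPM in DKO DSS, against 190 to 237 CPM in DKO water. It ranged over 202 to 239 CPM in LAO1KO DSS, against 222 to 290 CPM in LAO1KO water, and over 202 to 256 CPM in WT DSS, against 226 to 265 CPM in WT water. The ranges overlapped in every genotype.

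Cdx2 measured 241, 215 and 223 CPM in DKO DSS, against 339, 291 and 222 CPM in DKO water. It measured 281, 253 and 303 CPM in LAO1KO DSS, against 366, 265 and 330 CPM in LAO1KO water. It measured 275, 206 and 285 CPM in WT DSS, against 318, 317 and 298 CPM in WT water. All WT DSS libraries were below all WT water libraries, and the other genotypes overlapped. In WT water B both Cdx genes were within the range of the other libraries, at 263 CPM for Cdx1 and 317 CPM for Cdx2. LAO1KO water A was the highest library for both, at 290 CPM for Cdx1 and 366 CPM for Cdx2.

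Group means followed these libraries. Hoxa13 averaged 0.337 ± 0.109 CPM in DKO DSS and 0.223 ± 0.0717 CPM in DKO water, 0.320 ± 0.156 CPM in LAO1KO DSS and 1.02 ± 1.37 CPM in LAO1KO water, and 0.224 ± 0.241 CPM in WT DSS and 6.95 ± 10.6 CPM in WT water (SD, n = 3 each). The SD was larger than the mean in LAO1KO water, WT DSS and WT water. Cdx2 averaged 226 ± 13.3 CPM in DKO DSS and 284 ± 58.4 CPM in DKO water, 279 ± 24.9 CPM in LAO1KO DSS and 320 ± 51.2 CPM in LAO1KO water, and 255 ± 43.2 CPM in WT DSS and 311 ± 11.4 CPM in WT water (SD, n = 3 each). For Cdx2 the 3 water means lay above the 3 DSS means. For Hoxd10 the 3 DSS means lay above the 3 water means, at 15.5 ± 4.45 CPM in DKO DSS and 11.2 ± 1.53 CPM in DKO water, 16.8 ± 4.23 CPM in LAO1KO DSS and 9.01 ± 3.50 CPM in LAO1KO water, and 12.7 ± 4.16 CPM in WT DSS and 7.21 ± 7.09 CPM in WT water (SD, n = 3 each). For each of the 3 genes, groups next to each other in the order of means overlapped.

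**Figure D1:**
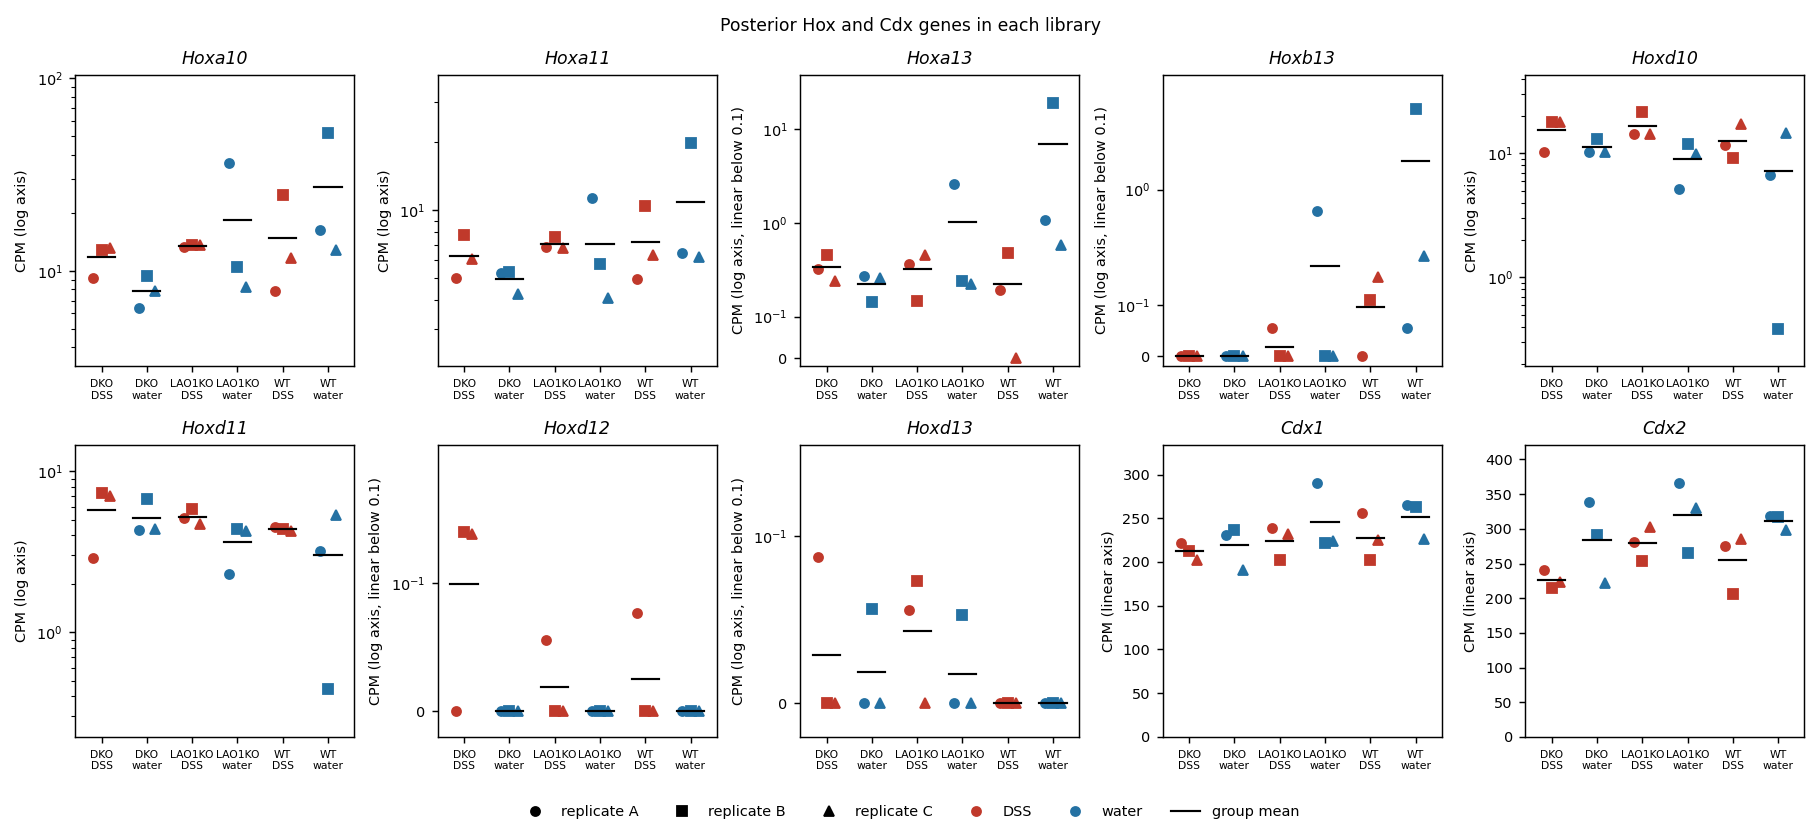
Level of each of the 10 genes in every library, in CPM, by group, with DSS libraries in red, water libraries in blue and a line at each group mean; Hox axes are logarithmic (linear below 0.1 CPM where libraries were at 0) and Cdx axes are linear from 0. WT water B (blue square, far right) is the highest library for Hoxa10, Hoxa11, Hoxa13 and Hoxb13 and the lowest for Hoxd10 and Hoxd11, while Cdx1 and Cdx2 stay within a narrow band.

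The rest of the Hox genes placed WT water B apart along whole clusters. The comparison here is with the 16 libraries other than WT water B and LAO1KO water A, and is a description without a test, since the pair was picked for its Hoxa13 level. In WT water B, 6 of 11 tested HoxA genes lay above all 16 libraries, all 8 tested HoxB genes lay below them, as did all 6 tested HoxD genes and 4 of 6 HoxC genes. In LAO1KO water A, 4 of 11 HoxA genes lay above the 16 and 7 of 8 HoxB genes below, while of 6 HoxD genes 2 lay below and 1 above. Over all tested genes 19.1% lay above and 16.8% below the 16 libraries in WT water B, and 18.3% above and 16.7% below in LAO1KO water A.

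Within HoxA the genes above all 16 were those from Hoxa9 onwards, together with Hoxa6 and Hoxa3 in WT water B. Hoxa7 was at 23.1 CPM in WT water B and 16.3 CPM in LAO1KO water A. In the other 16 its median was 2.80 CPM and its highest value 26.3 CPM, in WT DSS B. Hoxa9, the next gene in the cluster after the members, was at 44.0 CPM in WT water B and 53.2 CPM in LAO1KO water A, against a median of 6.29 CPM in the other 16. It was also at 39.8 CPM in WT DSS B and 16.1 CPM in WT water A, against at most 8.92 CPM in the other 14. Within HoxB the low genes included Hoxb6, at 16.7 CPM in WT water B and 59.7 CPM in LAO1KO water A against 63.1 to 128 CPM in the other 16. Hoxb9 was less displaced, at 72.0 and 74.7 CPM in the same 2 libraries against 90.7 to 135 CPM.

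Genes beside Hoxa13 at the end of the HoxA cluster were detected in the same library. Evx1, a homeobox gene of the posterior embryo, had 133 reads (4.24 CPM) in WT water B, 6 in LAO1KO water A and 0 in the other 16 libraries. Hottip, a noncoding RNA that starts near Hoxa13, was at 7.52 CPM in WT water B and 0.880 CPM in LAO1KO water A, against at most 0.258 CPM in the other 16.

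**Figure D2:**
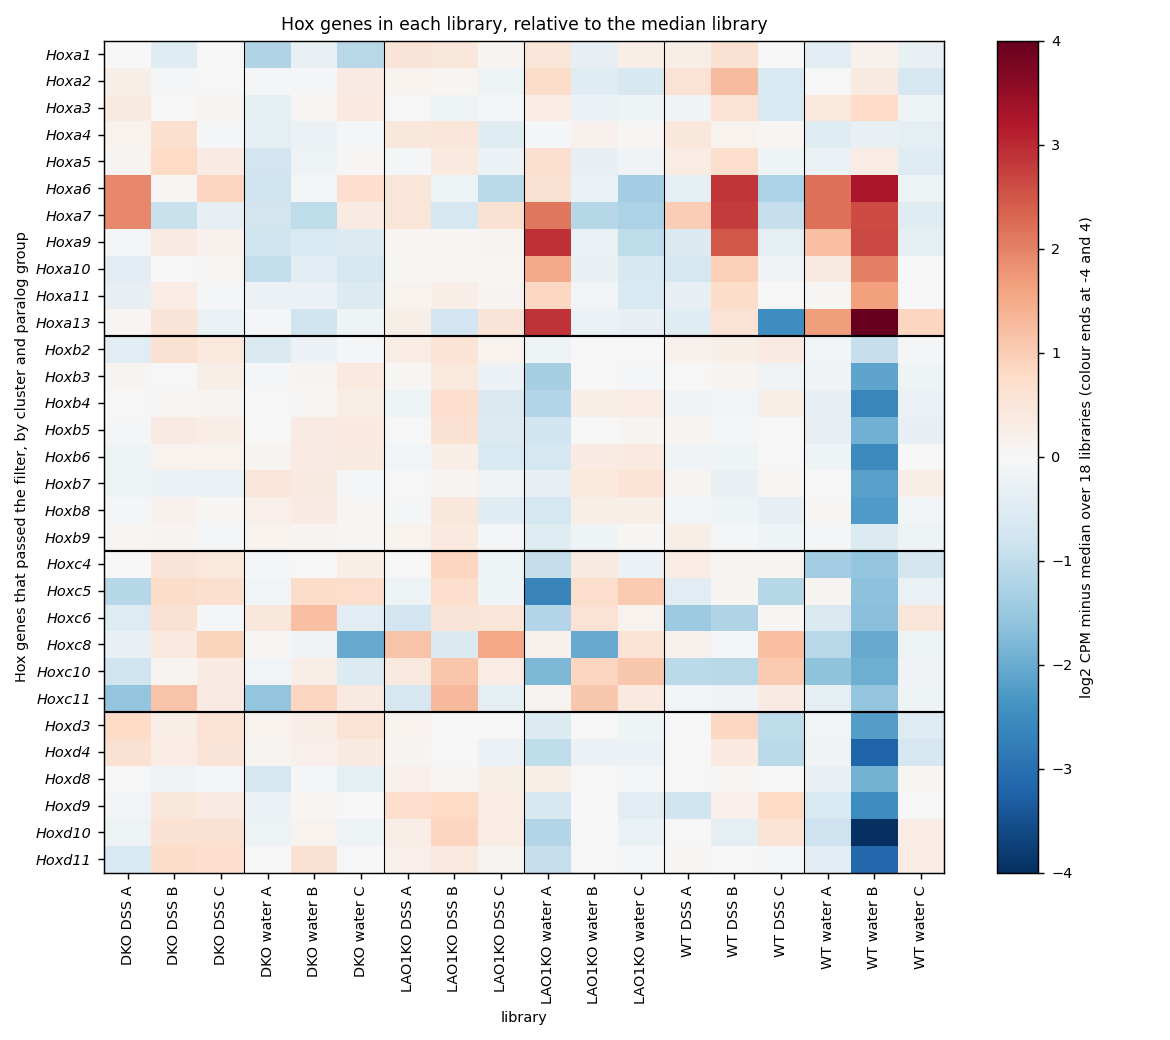
Hox genes that passed the filter (rows, HoxA to HoxD from top to bottom and from anterior to posterior within a cluster) in the 18 libraries (columns), as log2 CPM minus the median over the 18 libraries, red above it and blue below. The column of WT water B is red from Hoxa6 to Hoxa13 and blue through HoxB, HoxC and HoxD. LAO1KO water A shows the same colours for Hoxa6 to Hoxa13 and most of HoxB, at smaller size except for Hoxa9.

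A ratio within a library does not depend on how libraries are scaled. The sum of Hoxa9, Hoxa10, Hoxa11 and Hoxa13 over the sum of Hoxd9, Hoxd10 and Hoxd11 was 58.9 in WT water B, 7.95 in LAO1KO water A, 3.21 in WT DSS B and 2.56 in WT water A. In the other 14 libraries it was 0.639 to 0.996. Those 14 included all 6 DKO libraries, 5 of 6 LAO1KO libraries and 3 of 6 WT libraries. The ratio was chosen after the values were seen and is given as a description.

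**Figure D3:**
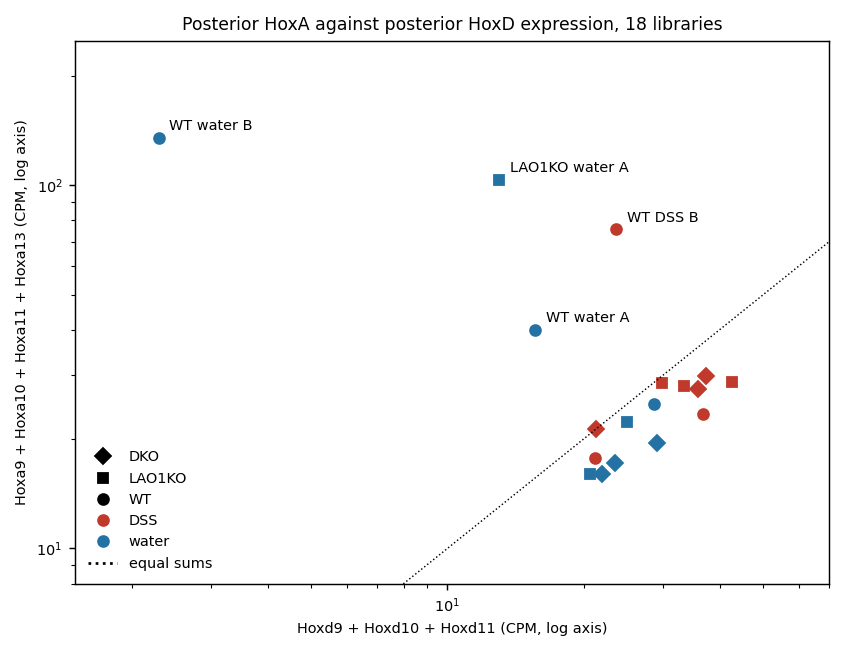
Sum of Hoxa9, Hoxa10, Hoxa11 and Hoxa13 (vertical) against the sum of Hoxd9, Hoxd10 and Hoxd11 (horizontal) in each of the 18 libraries, in CPM on logarithmic axes, with the dotted line at equal sums. The 4 labelled libraries have ratios of 2.56 to 58.9 and the other 14 have ratios of 0.639 to 0.996.

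Some genes that differ along the intestine were lowest or highest in WT water B, while their lists as a whole were not. The 23 small intestine and stomach genes summed to 1635 CPM in WT water B, rank 5 of 18, and to 3090 CPM in LAO1KO water A, rank 1, against 1108 to 2300 CPM in the other 16. The 4 distal colon markers present in the table summed to 142 CPM in WT water B, rank 17, against 121 to 260 CPM in the other 16. The single genes that follow were picked after their values were seen and are given as a description. Sis, the sucrase-isomaltase of the absorptive brush border, was at 0.159 CPM in WT water B and 12.2 CPM in LAO1KO water A, against 43.6 to 148 CPM in the other 16. Slc10a2, the apical bile acid transporter, was at 30.0 CPM in WT water B, against 193 to 713 CPM in the other 17 libraries. Fabp6, a bile acid binding protein, was at 1.85 CPM in WT water B and 7.66 CPM in LAO1KO water A, against 13.2 to 110 CPM in the other 16. Other absorptive genes did not follow this order, since Alpi, an intestinal alkaline phosphatase, was highest in WT water B at 89.2 CPM, and Fabp2, a fatty acid binding protein, was second there at 1467 CPM behind LAO1KO water A at 2512 CPM. Insl5, a hormone of enteroendocrine cells of the colon and rectum, was at 19.0 CPM in WT water B, against at most 11.2 CPM in the other libraries. Nts, the neurotensin gene on the same list, was lowest there at 12.6 CPM, against at least 36.0 CPM, and the hormone genes Gcg and Pyy were within the range of the other libraries.

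Markers of neighbouring tissues were measured in the same libraries. The 12 anal squamous genes summed to 7.01 CPM in WT water B and 8.63 CPM in LAO1KO water A. Their sum was 5.32 to 8.81 CPM in the other 16. Most of it was Krt10, with a mean of 5.50 CPM over the 18 libraries. Single genes of the list were picked after their values were seen. Krt13 had 9 reads in WT water B, 2 in WT water C and 0 in the others. Krt5 and Krtdap were highest in LAO1KO water A, with 23 and 9 reads, and Krt1 was lowest there, at 0.0852 CPM. Krt6a and Sprr3 had no count in any library. The 9 bladder, prostate and seminal vesicle genes summed to 25.7 CPM in WT water B, within the 16.7 to 29.8 CPM of the other 16, and to 46.3 CPM in LAO1KO water A, mostly Upk1a. Pbsn and Svs5, which define prostate and seminal vesicle, had no count anywhere.

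Smooth muscle and epithelial genes were above the other 16 in both libraries of the pair, and other tissue lists were mixed. The 10 smooth muscle genes summed to 9466 CPM in WT water B and 8994 CPM in LAO1KO water A, against 2547 to 7273 CPM in the other 16. The 9 epithelial genes summed to 17097 and 20517 CPM in the same 2 libraries, against 8234 to 14247 CPM. The 10 fibroblast genes summed to 1560 and 970 CPM, against 428 to 1149 CPM, and the 10 enteric neuron and glia genes to 106 and 110 CPM, against 99.6 to 356 CPM. The 8 lymphocyte genes summed to 2.71 and 4.40 CPM, against 3.15 to 32.6 CPM. The 5 red cell genes summed to 41.4 and 191 CPM, against 43.6 to 591 CPM. The 8 adipocyte genes were within the range of the other 16 in both. The part of these shifts in the Hox values was not tested. In tissue RNA, fewer cells of a type and less RNA per cell cannot be told apart.

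Under DSS in WT the model called Hoxa13 lower, and that call was lost under several settings. In edgeR's quasi-likelihood test, with p-values adjusted over 18848 genes and called under 0.05, 1 of the 7 tested members passed, against 12.9% of all genes in either direction and 6.59% lower. Hoxa13 was lower in WT DSS than in WT water, with a log2 fold change of -4.81 ± 1.37 (SE) and an adjusted p of 0.0337. The call was lost in 4 of 6 fits that left out 1 library, with edgeR adjusted p of 0.0983, 0.0521 and 0.11 without WT DSS A, B and C and 0.309 without WT water B. It was also lost with limma voom, with no filter on low counts and with only the groups compared. Among fits that left out 1 library the estimate was nearest to 0 without WT water B, at -1.78, and without WT water B and LAO1KO water A it was -1.77 with an adjusted p of 0.131. That pair was picked for its high Hoxa13, so leaving it out had to lower the water level in this contrast. Groups did not overlap for 2 of the 7, Hoxa13 and Cdx2, both lower in DSS, against 33.8% of all tested genes. Cdx2 had a log2 fold change of -0.29 ± 0.16 in WT with an edgeR adjusted p of 0.257.

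In the knockout lines no member passed. In LAO1KO 0 of 7 passed the edgeR test, against 0.196% of all genes, and DESeq2 and limma voom called none of the 7 either. No member had an unadjusted p under 0.05. Groups did not overlap for Hoxd10 and Hoxd11, both higher in LAO1KO DSS, against 19.3% of all genes, with log2 fold changes of 0.90 ± 0.69 and 0.51 ± 0.53 and edgeR adjusted p of 0.555 and 0.667. In DKO 0 of 7 passed, against 0.0159% of all genes, with none by DESeq2 or limma voom and none at an unadjusted p under 0.05. In DKO every member overlapped between treatments, against 18.8% of genes without overlap.

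Averaged over the genotypes, no member passed in the edgeR test either, against 15.9% of all genes (6.72% higher and 9.18% lower), and 2 had an unadjusted p under 0.05. Cdx2 was nearest, with a log2 fold change of -0.27 ± 0.09 and an edgeR adjusted p of 0.0592. DESeq2, limma voom and RLE size factors put it under 0.05, and without the pair of libraries it was -0.23 with an adjusted p of 0.102. The estimate for Cdx2 was negative in each genotype, at -0.33 in DKO, -0.20 in LAO1KO and -0.29 in WT. Of the 9 epithelial genes 2 were lower and 0 higher in this comparison, and without the pair 1 was lower, Cdh17, and 1 higher, Krt18. The fit without the pair called 16.9% of all genes in either direction. The mitochondrial mRNA share reached 44.9% in DSS libraries and 20.7% in water libraries, and its part in the Cdx2 value was not tested. Hoxa13 averaged -1.96 with an edgeR adjusted p of 0.104, and -0.24 with an adjusted p of 0.735 without the pair. The latter value was shaped by the choice of the pair, made on Hoxa13 in water libraries.

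The 3 genes too low for the model were compared by a 2-sided exact permutation test of mean CPM within genotypes over 8000 arrangements. Hoxb13 averaged 0.0381 CPM in DSS libraries and 0.661 CPM in water libraries, a difference of -0.623 CPM (p = 0.19, adjusted over the 3 genes 0.285, exact permutation). Hoxd12 differed by 0.0480 CPM (p = 0.1, adjusted 0.285, exact permutation) and Hoxd13 by 0.0119 CPM (p = 0.41, adjusted 0.41, exact permutation). None of the 3 passed.

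**Figure D4:**
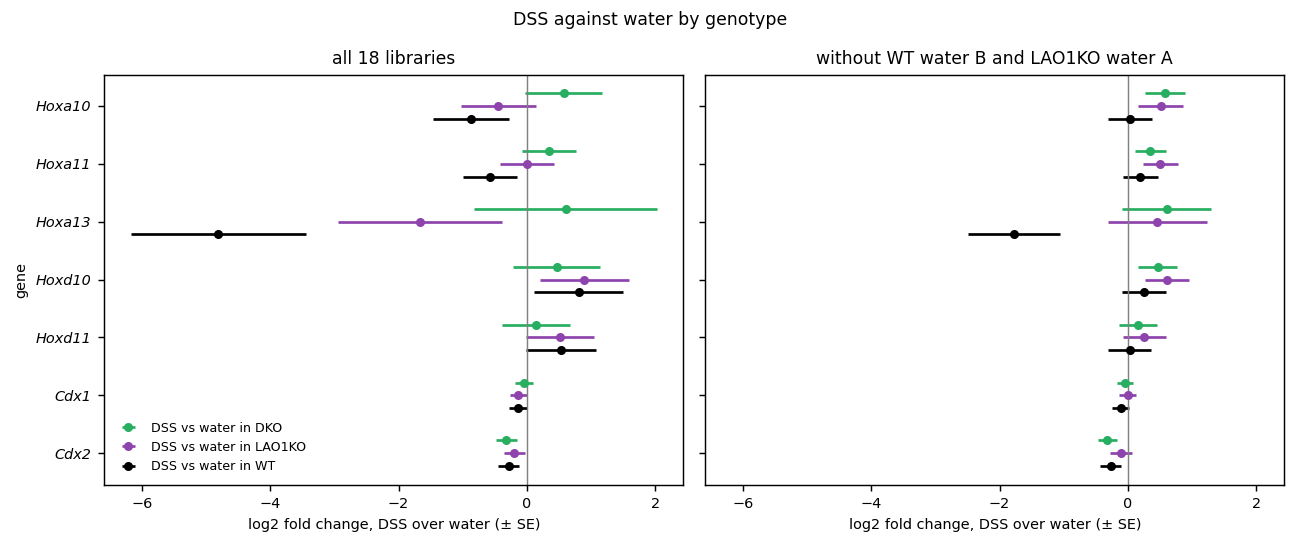
Log2 fold change of DSS over water (± SE from edgeR) for the 7 tested members in DKO (green), LAO1KO (purple) and WT (black), fitted to all 18 libraries on the left and without WT water B and LAO1KO water A on the right, on the same axis. Hoxa13 in WT is -4.81 on the left and -1.77 on the right, Hoxa10 in WT is -0.87 on the left and 0.03 on the right, and Cdx2 lies below 0 in each genotype in both fits. The libraries left out were picked for their high Hoxa13, so the smaller Hoxa13 drop in WT on the right followed from that choice.

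Under water, the HoxA estimates for DKO against WT were nearer 0 without WT water B and remained negative. No member passed between libraries labelled DKO and WT under water, against 0.621% of all genes, and DESeq2 called Hoxa13 while limma voom called none. Of the members 3 had an unadjusted p under 0.05. Hoxa10, Hoxa11 and Hoxa13 did not overlap between the groups and were lower in DKO, against 21.5% of all genes without overlap. Log2 fold changes were -1.78 ± 0.61 for Hoxa10, -1.12 ± 0.42 for Hoxa11 and -4.95 ± 1.36 for Hoxa13, with edgeR adjusted p of 0.167, 0.195 and 0.108. Without WT water B they were -0.90, -0.38 and -1.92, with edgeR adjusted p of 0.653, 0.803 and 0.587. Without the pair of libraries they were -0.90 ± 0.34, -0.38 ± 0.27 and -1.92 ± 0.71. The edgeR unadjusted p in that fit were 0.0194, 0.182 and 0.015, and the adjusted p 0.338, 0.632 and 0.317. Hoxb13, which had no model test, had 0 reads in DKO water libraries and 2, 156 and 10 in WT water A, B and C. The 10 smooth muscle genes summed to 2547 to 5778 CPM in DKO water, against 6190 to 9466 CPM in WT water, and their part in the Hoxa values was not tested.

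Between libraries labelled LAO1KO and WT under water no member passed by edgeR, DESeq2 or limma voom, against 0.0531% of all genes, and 1 had an unadjusted p under 0.05. Hoxa13 had a log2 fold change of -2.75 with an edgeR adjusted p of 0.304, and of 0.29 without WT water B. That fit kept LAO1KO water A, the other library of the pair. Without both libraries it was -1.84 ± 0.79, with an edgeR unadjusted p of 0.0331 and an adjusted p of 0.65. Both were picked for their high Hoxa13. Under DSS no member passed for LAO1KO against WT (0.0849% of all genes) or for DKO against WT (0.255% of all genes), by any of the 3 tools, and none had an unadjusted p under 0.05. Hoxd11 alone did not overlap, being higher in LAO1KO DSS than in WT DSS, against 11.8% of all genes, with a log2 fold change of 0.26 ± 0.54. For DKO against LAO1KO averaged over treatments no member passed by any of the 3 tools or had an unadjusted p under 0.05, against 0.239% of all genes called by edgeR, where Cdx2 had -0.24 ± 0.12 and an edgeR adjusted p of 0.694.

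The DSS response of each knockout line was also set against that of WT in an interaction term. For LAO1KO 0 of 7 members passed in edgeR, DESeq2 or limma voom and none had an unadjusted p under 0.05. Of all genes edgeR called 0%, with 3005 at an unadjusted p under 0.05, while DESeq2 called 438 and limma voom 2354. For DKO 0 of 7 passed by any of these tools, against 0.0584% of all genes in edgeR, and Hoxa13 alone had an unadjusted p under 0.05, with a difference of 5.41 ± 1.96 on the log2 scale and an edgeR adjusted p of 0.221. Its value without WT water B was 2.38. Over any difference among the 6 groups, Hoxa13 passed with an edgeR adjusted p of 0.039, as 1 of 7 members against 5.72% of all genes. That call was lost in 11 of 18 fits that left out 1 library, with edgeR adjusted p between 0.0119 and 0.312, the highest without WT water B. Comparisons that share the WT water libraries are not independent of each other.

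Hoxa10 and Hoxa11, Hoxd10 and Hoxd11, and Cdx1 and Cdx2 varied together from library to library, also without the pair of libraries. Pearson's r and Spearman's rho of log2 CPM were computed for 21 pairs of the 7 tested members over 18 libraries, with 100000 permutations and adjustment over the 21 pairs. Hoxa10 and Hoxa11 had r = 0.949 (permutation p = 1e-05, the smallest these permutations can give, adjusted 0.00021) and rho = 0.915 (permutation p = 1e-05, adjusted 0.00021). Their r was 0.878 without the pair of libraries, which were also the libraries farthest from the Hoxa10 median. Hoxd10 and Hoxd11 had r = 0.96 (permutation p = 2e-05, adjusted 0.00021) and rho = 0.812 (permutation p = 7e-05, adjusted 0.000735), and r = 0.725 without the pair. Cdx1 and Cdx2 had r = 0.788 (permutation p = 9e-05, adjusted 0.00063) and rho = 0.767 (permutation p = 0.00035, adjusted 0.00245), with r = 0.697 without the 2 libraries farthest from the Cdx1 median, LAO1KO water A and DKO water C. Hoxa10 and Hoxa13 had r = 0.8 (permutation p = 0.00039, adjusted 0.00164) and rho = 0.598 (permutation p = 0.0102, adjusted 0.0497), but r = 0.366 without the pair, with an adjusted permutation p of 0.419. Hoxa11 and Hoxa13 had r = 0.777 (permutation p = 0.00129, adjusted 0.00451) and rho = 0.587 (permutation p = 0.0118, adjusted 0.0497), but r = 0.244 without the pair, with an adjusted permutation p of 0.534.

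Opposite variation between clusters no longer passed without the pair of libraries. That pair was picked for its high Hoxa13, so leaving it out narrowed the range of Hoxa13. It is no independent check of the correlations with Hoxa13, here or above. Hoxa13 and Hoxd10 had r = -0.879 (permutation p = 0.00014, adjusted 0.000735) and rho = -0.503 (permutation p = 0.0346, adjusted 0.121), and r = -0.479 without the pair, with an adjusted permutation p of 0.314. Hoxa10 and Hoxd10 had r = -0.689 (permutation p = 0.00515, adjusted 0.0135) and rho = -0.137 (permutation p = 0.584, adjusted 0.722), and r = 0.0773 without the pair. In all, 14 of the 21 pairs passed by Pearson's r, 8 of them negative, and 3 passed without the pair of libraries, namely Hoxa10 with Hoxa11, Hoxd10 with Hoxd11 and Cdx1 with Cdx2.

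Among 13467 genes with a mean of at least 1 CPM, those most like each member over the 18 libraries were ranked by Spearman's rho of log2 CPM, as a description. Genes of a library share its depth and tissue composition. Hoxa10 was most like Fzd2 (rho 0.924), Tagln (rho 0.907) and Hoxa9 (rho 0.903), and Hoxa11 most like Tagln (rho 0.936), Marveld1 (rho 0.926) and Pbx3 (rho 0.917). Tagln encodes a smooth muscle actin-binding protein and is on the smooth muscle list above. Hoxa13, at few reads in most libraries, was most like Itgb1 (rho 0.924), Tpm4 (rho 0.917) and Rdh11 (rho 0.858).

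Genes most like Hoxd10 included Agtr1a (rho 0.920) and Chrna6 (rho 0.903), and Hoxd11 was most like Cyp4x1 (rho 0.849), Sgtb (rho 0.847) and Utrn (rho 0.837). Agtr1a encodes an angiotensin receptor and Chrna6 a nicotinic acetylcholine receptor subunit. Cdx1 was most like Gorasp2 (rho 0.936), Samm50 (rho 0.920) and Tsta3 (rho 0.907), and Cdx2 most like Bloc1s5 (rho 0.948), Rsph3b (rho 0.922) and Acads (rho 0.920).

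The other Hox genes and their partners were counted from lists chosen with earlier results of these data known. Averaged over genotypes, 1 of 15 middle Hox genes rose under DSS, Hoxc4 (log2 fold change 0.76 ± 0.22, edgeR adjusted p 0.0296), and 1 of 6 anterior Hox genes, Hoxb2 (0.50 ± 0.15, edgeR adjusted p 0.0295), against 6.72% of all genes higher and 9.18% lower. Without the pair of libraries neither passed, and Hoxa5 (0.58 ± 0.16, edgeR adjusted p 0.0204) and Hoxb7 (-0.39 ± 0.09, edgeR adjusted p 0.00635) did, against 16.9% of all genes in either direction. None of the 5 tested further posterior Hox genes passed, with a median log2 fold change of 0.26 against 0.03 over all genes, and Hoxa9 had -0.35 ± 0.58, which turned to 0.71 ± 0.44 without the pair (edgeR adjusted p 0.295).

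Of 9 Hox cofactors, the TALE homeodomain proteins that bind DNA with Hox proteins, 2 rose and 1 fell under DSS averaged over genotypes, against 6.72% of all genes higher and 9.18% lower. Meis1 rose by 0.44 ± 0.14 (edgeR adjusted p 0.0452), Meis3 rose by 0.35 ± 0.11 (edgeR adjusted p 0.0359) and Pknox1 changed by -0.22 ± 0.07 (edgeR adjusted p 0.0495) on the log2 scale. Without the pair of libraries 1 of 9 passed, Pbx3, at 0.41 ± 0.10 (edgeR adjusted p 0.0116), against 16.9% of all genes in either direction. The enteric neuron and glia list moved on the same contrast, with 9 of its 10 genes higher under DSS. Without the pair 4 of 10 were higher and 0 lower, against the same 16.9%. The part of this list in the cofactor values was not tested.

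Few epithelial regulators and Cdx targets were called with all 18 libraries. Of 19 tested intestinal epithelial transcription factors 2 were lower and 0 higher averaged over genotypes, a share near the 9.18% of all genes called lower. They were Klf4 at -0.64 ± 0.15 (edgeR adjusted p 0.00849) and Foxa1 at -0.17 ± 0.05 (edgeR adjusted p 0.0442). Without the pair of libraries 7 of 19 were lower and 0 higher, and the lower genes included Klf4, Klf5, Ascl2 and Sox9. That fit called 16.9% of all genes in either direction. Of 11 Cdx target genes, Cdh17 at -0.53 ± 0.12 (edgeR adjusted p 0.00922) and the keratin gene Krt20 at -0.80 ± 0.22 (edgeR adjusted p 0.0212) were lower and 0 were higher. The median of the 11 was -0.24, against 0.03 over all genes. Without the pair 3 of the 11 were lower, with Sis added, and 0 were higher, against the same 16.9%.

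Patterning signals and segment markers gave few calls. Of 17 tested posterior patterning genes 2 were lower averaged over genotypes, near the 9.18% of all genes called lower. The same 2 passed without the pair, against 16.9% of all genes in either direction. They were the Wnt target Axin2 at -0.63 ± 0.14 (edgeR adjusted p 0.00849) and the retinoic acid hydroxylase gene Cyp26b1 at -0.60 ± 0.17 (edgeR adjusted p 0.0291). Of 14 tested small intestine and stomach markers 3 were higher, against 6.72% of all genes, the apolipoprotein genes Apoa4 at 2.68 ± 0.60 (edgeR adjusted p 0.00991) and Apoa1 at 2.36 ± 0.58 (edgeR adjusted p 0.0176) and the lactase gene Lct at 1.51 ± 0.45 (edgeR adjusted p 0.031). Without the pair these 3 were higher and 2 of 15 tested were lower, against the same 16.9%. The lower genes were Slc10a2 at -1.02 ± 0.12 (edgeR adjusted p 0.000154) and Sis at -0.49 ± 0.13 (edgeR adjusted p 0.0208). Of 4 distal colon markers Gcg, the proglucagon gene, was lower at -0.59 ± 0.16 (edgeR adjusted p 0.0237), and Insl5 had -0.98 ± 0.38 with an edgeR adjusted p of 0.0883.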

How the data were processed

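Stranded mRNA libraries were prepared from colon RNA, per the labels' protocols. The deposited table holds 1 column of whole-number read counts per library. HISAT2 (2.1.0) and StringTie (2.1.3b) are listed among the submitters' processing notes with a GRCm38 build and no settings, as are Trimmomatic (0.38) and FastQC (0.11.7). How strand, overlapping genes and multiply mapped reads were counted is not given in the sources used here, which can shift members with overlapping neighbours.

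From these counts, edgeR 4.0.16 in R 4.3.3 kept 18848 genes (filterByExpr), scaled the 18 libraries by TMM and fitted 1 mean per group with quasi-likelihood F-tests, adjusted over all tested genes, threshold 0.05. Scripts were tested on simulated data. Log2 values used a prior count of 2. DESeq2 1.42.0, limma 3.58.1 and the alternatives in the closing section were also run. Exon lengths came from GENCODE M21. The depth of 26003174 to 36553193 counts sets the floor of 3 counts for a count of 0.

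The members and lists were chosen with earlier results of these data known. All members were named, and from other lists the called members (up to 4 by smallest p), with Hoxa9, Evx1 and Insl5. Prac1 was not analysed here. Other names are said to be chosen after their values were seen or are among the 3 genes most like a member. Some items the rule names are not reported here. Whether the labels' replicates came from separate animals beyond the words biological replicate is not stated, and p-values measure the spread between them. Within groups, replicates differed by more than counting noise.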

Additional observations from a re-analysis of the deposited data

How the results depend on the processing

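Of 196 recomputed counts of members called, 161 equalled that reported and 35 differed. For any difference among the groups (1 member) the count was 0 with no filter on low counts, with the replicate block and without the 2 libraries with the most Hoxa13, a choice made after seeing the data, 2 with limma voom, and 0 to 1 when each library was left out. For DSS in WT (1 member) it was 0 with no filter, limma voom, only the compared groups, or without the 2 libraries, and 0 to 1 when leaving out each library. For DSS averaged over genotypes (0 members) it was 1 with RLE size factors, limma voom or the replicate block (Cdx2 each time), 2 with DESeq2 (Cdx2 and Hoxa13) and 0 to 1 when leaving out each library; fitting only the groups compared is the reported fit itself. For DKO against WT under water (0) it was 1 with DESeq2, and 0 to 1 when leaving out each library. The other 8 comparisons kept 0 under every setting run. Hoxa13 in LAO1KO against WT under water was -2.75, reversed to 0.29 without WT water B and reached -4.88 without LAO1KO water A. It was -1.84 without both libraries. Pairs that varied together numbered 14, but 4 with group means subtracted, 3 without the 2 libraries and 6 to 15 when leaving out each library. The cause of these shifts was not tested.

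Counts of all genes called moved more. Against 1079 for any difference they ran over 510 to 10183, against 2428 for DSS in WT over 777 (without WT water B) to 3462, against 37 in LAO1KO over 0 to 5029, against 3 in DKO over 1 to 442, and against 2996 averaged over 1928 to 6224. They ran over 4 to 934 against 10 for LAO1KO and WT under water, 9 to 987 against 16 under DSS, 30 to 782 against 117 for DKO and WT under water, 24 to 447 against 48 under DSS, and 32 to 354 against 45 for DKO and LAO1KO. Interactions ran over 0 to 2354 against 0 for LAO1KO and 0 to 492 against 11 for DKO. Replicate letters did not pair libraries: same-letter correlations of deviations from group means were -0.30 to 0.32 (median 0.03), different-letter median -0.02. Counts of 0 to 15 reads limit Hoxa13 outside 4 libraries, Hoxb13 outside WT water B and LAO1KO water A, and Hoxd12 and Hoxd13 throughout.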
